A study of Rattus norvegicus with 64 samples.

Results

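Circadian clock genes are the subject here: 10 genes, namely Arntl, Clock, Per1, Per2, Per3, Ciart, Nr1d1, Nr1d2, Dbp and Tef, were selected by gene symbol. Their identifiers in the tables are ENSRNOG00000014448 (Arntl), ENSRNOG00000002175 (Clock), ENSRNOG00000007387 (Per1), ENSRNOG00000020254 (Per2), ENSRNOG00000018413 (Per3), ENSRNOG00000042717 (Ciart), ENSRNOG00000009329 (Nr1d1), ENSRNOG00000046912 (Nr1d2), ENSRNOG00000021027 (Dbp) and ENSRNOG00000019383 (Tef). All 10 were found among 32552 gene rows of the deposited count tables, and all 10 passed the filter on low counts in every comparison. The counts come from RNA sequencing of the hippocampus and the cortex of 32 rats, 64 libraries in all. The rats carried ApoE4 or ApoE3, forms of apolipoprotein E, the lipid carrier of the brain whose human ApoE4 form is linked to higher risk of Alzheimer disease. The treatment was doxorubicin, a chemotherapy drug of the anthracycline class, at 2 mg/kg weekly for 4 weeks from 5 weeks of age, or PBS, the saline vehicle. Both regions were collected 5 to 6 weeks after the last dose, and the comparison of interest is drug against vehicle within each genotype. The groups were ApoE4 doxorubicin, ApoE4 PBS, ApoE3 doxorubicin and ApoE3 PBS in each region, 8 libraries per group from 4 females and 4 males. The hour of tissue collection is not stated in the labels used here, nor is the way the ApoE alleles were introduced.

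The mammalian clock is a loop of transcription factors that runs in most cells. Arntl (also called Bmal1) and Clock form the activator pair, which binds E-box elements and drives the Per genes, Ciart, Nr1d1, Nr1d2, Dbp and Tef. The Per proteins and Ciart repress that pair, and Nr1d1 and Nr1d2, nuclear receptors also called Rev-erb alpha and beta, repress Arntl through RORE elements. Dbp and Tef are PAR bZIP activators that act on D-box elements. Arntl transcripts therefore peak at about the opposite time of day to those of Dbp and the Rev-erb genes, and a brain sample taken at a single moment carries the hour of its collection in these genes. Per1 and Per2 also respond quickly to light, neuronal activity and glucocorticoids.

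To show letters of the E-box, RORE and D-box elements named above, the promoters of an activator, a repressor of the Per family and the repressor Ciart were read from RefSeq (GRCr8, 300 bases, 250 before the start and 50 after it, on the strand of the gene). Ciart lies at chr2:186112197-186112496 (minus strand), Per2 at chr9:99496944-99497243 (minus strand) and Arntl, listed by RefSeq as Bmal1, at chr1:176766078-176766377 (plus strand). Capitals mark motif matches.
Ciart: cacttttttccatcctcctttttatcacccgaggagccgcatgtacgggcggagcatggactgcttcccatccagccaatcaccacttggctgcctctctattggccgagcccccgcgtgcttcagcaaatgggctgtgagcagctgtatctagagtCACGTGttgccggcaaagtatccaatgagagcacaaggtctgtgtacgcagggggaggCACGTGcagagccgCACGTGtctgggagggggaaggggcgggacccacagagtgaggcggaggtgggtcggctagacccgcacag
Per2: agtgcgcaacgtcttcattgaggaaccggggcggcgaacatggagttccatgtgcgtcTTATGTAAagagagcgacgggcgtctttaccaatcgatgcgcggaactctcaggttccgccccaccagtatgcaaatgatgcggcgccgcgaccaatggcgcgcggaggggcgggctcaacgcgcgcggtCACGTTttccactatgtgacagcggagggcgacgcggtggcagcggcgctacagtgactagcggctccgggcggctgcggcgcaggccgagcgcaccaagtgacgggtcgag
Arntl: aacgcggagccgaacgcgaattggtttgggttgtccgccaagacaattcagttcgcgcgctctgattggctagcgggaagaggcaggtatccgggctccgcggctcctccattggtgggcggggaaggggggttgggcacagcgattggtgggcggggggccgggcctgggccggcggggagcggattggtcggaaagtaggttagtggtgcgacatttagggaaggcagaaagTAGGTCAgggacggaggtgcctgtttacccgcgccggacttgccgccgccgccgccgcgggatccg
The motifs searched on both strands were the E-box CACGTG, the E-prime box CACGTT, the RORE core TAGGTCA and the D-box TTATGTAA. The Ciart promoter held 3 E-boxes, which began 93, 35 and 21 bases before the start. The Per2 promoter held an E-prime box 62 bases before the start and a D-box 192 bases before it, and the Arntl promoter held a RORE core 16 bases before the start. Of 33469 RefSeq promoters of this length, 6.42% held the E-box, 4.83% the E-prime box, 2.63% the RORE core and 0.893% the D-box. Among the other members, the Tef promoter held an E-box, and each of the Nr1d1 promoter entries held an E-box or an E-prime box. The windows of Per1, Per3, Dbp, Clock and Nr1d2 held none of these letters.

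The 64 libraries held between 10.8M and 20.4M counts each (median 14.45M). At this depth the least counted member, Ciart, had 78 to 430 counts per library, and Tef had 2840 to 6350. The hippocampal markers Prox1, Zbtb20, Wfs1 and Dsp summed to 348 to 609 CPM in hippocampus and 155 to 309 CPM in cortex. Consecutive rat numbers share genotype, sex and treatment, so a batch that follows the numbering cannot be told apart from the groups. Some libraries stood apart in choroid plexus genes (Ttr, Kl, Kcnj13, Folr1 and Clic6), which summed to 4.77 to 12030 CPM in hippocampus and 2.58 to 819 CPM in cortex. In bulk tissue, fewer cells of a type and less RNA per cell cannot be told apart. CPM of single genes below are counts scaled to library size by TMM, compared for 1 gene across libraries. CPM summed over marker genes, above and below, are counts scaled to library size without TMM and added over the genes of a list. Adjusted p-values come from the quasi-likelihood test of edgeR with Benjamini-Hochberg adjustment over all tested genes, with a threshold of 0.05.

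The members did not share 1 regional pattern in PBS rats. Tef was higher in hippocampus than in cortex, while Arntl, Clock, Nr1d1 and Nr1d2 were lower in hippocampus in both genotypes. In ApoE4 rats 5 of 10 members passed, against 50.4% of 15432 tested genes, and in ApoE3 rats 6 of 10 passed, against 51% of 15428. In this fit, which does not pair the regions of a rat, the members' shares were near the background. In the paired fit, given below, 9 of 10 passed in ApoE3 rats, against 51.1% of genes, and 6 of 10 in ApoE4 rats, against 50.2%. The members' median log2 difference was -0.18 in ApoE4 and -0.36 in ApoE3 rats, and that of all tested genes was 0.00026 in ApoE4 and 0.02 in ApoE3 rats.

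Tef ran in hippocampus from 290 to 378 CPM with a median of 349 in ApoE4 PBS rats and from 312 to 360 CPM with a median of 338.5 in ApoE3 PBS rats. In cortex Tef ran from 247 to 277 CPM with a median of 268 in ApoE4 PBS rats and from 254 to 299 CPM with a median of 271 in ApoE3 PBS rats. The regions did not overlap in either genotype, and the log2 difference of hippocampus over cortex was 0.36 (SE 0.05) in ApoE4 and 0.30 (SE 0.04) in ApoE3 rats. Arntl and Clock, the activator pair, showed the reverse order, also without overlap in either genotype, and so did Nr1d1 in ApoE3 rats. Groups did not overlap for 9.52% (lower) and 9.75% (higher) of 15885 genes in ApoE4 rats and for 9.03% and 9.12% in ApoE3 rats. Arntl in hippocampus ran from 31.5 to 39.4 CPM (median 35.7) in ApoE4 PBS and 25.8 to 34.6 CPM (median 30.6) in ApoE3 PBS rats. Its cortical values ran from 49.3 to 58.6 CPM (median 55.2) in ApoE4 PBS and 35.0 to 49.9 CPM (median 39.8) in ApoE3 PBS rats. The log2 difference of hippocampus over cortex was -0.64 (SE 0.06) for Arntl and -0.52 (SE 0.06) for Clock in ApoE4 rats, and -0.43 (SE 0.10) and -0.39 (SE 0.06) in ApoE3 rats. Among the repressors, Nr1d2 was at -0.43 (SE 0.07) in ApoE4 and -0.48 (SE 0.09) in ApoE3 rats, and Nr1d1 was at -0.24 (SE 0.08) and -0.53 (SE 0.08). Ciart was at -0.12 (SE 0.10) in ApoE4 rats and passed in ApoE3 rats at -0.72 (SE 0.17). A test of that difference between genotypes was not run. With the rat as a block, which pairs the regions of 1 animal, 6 of 10 members passed in ApoE4 and 9 of 10 in ApoE3 rats, against 50.2% and 51.1% of genes. The block added Per1 in both genotypes (log2 -0.24 in ApoE4, adjusted p = 0.0133; -0.30 in ApoE3, adjusted p = 0.00177), and in ApoE3 rats Dbp (-0.25, adjusted p = 0.00011) and Per3 (-0.17, adjusted p = 0.0175), all by edgeR. Per2 did not pass in either fit.

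**Figure D1:**
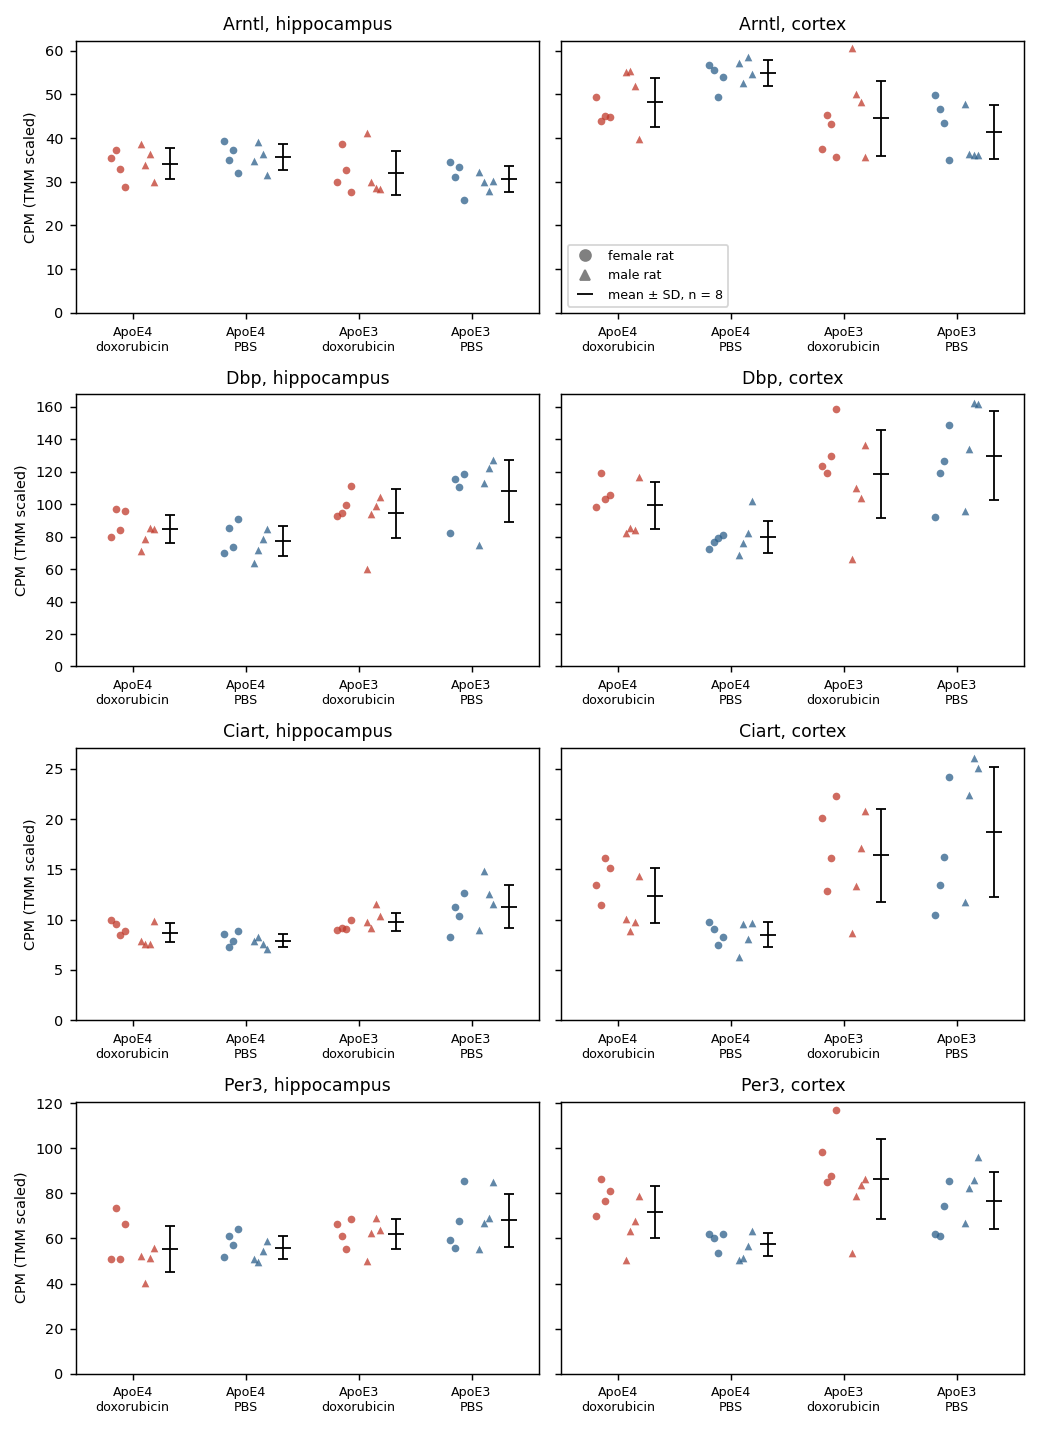
CPM of Arntl, Dbp, Ciart and Per3 in each rat (circles, females; triangles, males) by genotype and treatment in hippocampus (left) and cortex (right); the bar beside each group is the mean ± SD of 8 rats, and axes start at 0. In cortex the ApoE4 PBS rats lie below all ApoE3 PBS rats for Ciart (at most 9.72 CPM against at least 10.5 CPM).

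The genotypes differed in the clock genes of PBS rats, with 7 members called in cortex and 2 in hippocampus. ApoE4 cortex had lower Ciart, Dbp, Nr1d1, Per3 and Nr1d2 and higher Arntl and Clock than ApoE3 cortex. These 7 of 10 members passed, against 18.2% of 15315 tested genes. By direction, 5 members were lower, against 8.57% of genes, and 2 were higher, against 9.63%. Over the members the median log2 difference was -0.32, against -0.0072 over all tested genes. In hippocampus 2 of 10 passed, Ciart and Dbp, both lower, against 3.81% of 15416 tested genes (1.89% lower). The ApoE4 rats bear the numbers 1 to 34 and the ApoE3 rats 37 to 72. Within groups the cortical r with the rat number was 0.81 for Dbp, 0.74 for Per3, 0.67 for Ciart and -0.72 for Arntl. For the other called members the rank correlation rho was 0.73 for Nr1d2, 0.66 for Nr1d1 and -0.32 for Clock. The relation of Clock had a permutation p of rho of 0.129. The genotypes hold separate runs of numbers, so genotype and whatever the number records cannot be told apart.

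Ciart, the repressor also called Chrono, ran from 6.28 to 9.72 CPM with a median of 8.69 in ApoE4 PBS cortex, against 10.5 to 26.1 CPM with a median of 19.3 in ApoE3 PBS cortex. All 8 ApoE4 values were below all 8 ApoE3 values, which held in the same direction for 0.982% of 15885 genes. The log2 difference was -1.14 (SE 0.18, edgeR adjusted p = 2.8e-05). In hippocampus Ciart ran from 7.12 to 8.89 CPM (median 7.86) in ApoE4 PBS and from 8.28 to 14.9 CPM (median 11.4) in ApoE3 PBS rats. There 6 of 8 ApoE4 values were below the lowest ApoE3 value, with a log2 difference of -0.51 (SE 0.09, edgeR adjusted p = 0.000725).

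Dbp, the PAR bZIP activator, ran from 68.6 to 102 CPM with a median of 77.9 in ApoE4 PBS cortex, against 91.9 to 163 CPM with a median of 130.3 in ApoE3 PBS cortex. Of the ApoE4 values, 7 of 8 were below the lowest ApoE3 value, and rat 7 was the exception. The log2 difference was -0.71 (SE 0.12, edgeR adjusted p = 8.1e-05). In hippocampus Dbp ran from 63.7 to 90.7 CPM (median 76.2) in ApoE4 PBS and from 74.6 to 127 CPM (median 114) in ApoE3 PBS rats. All 8 ApoE4 values were below the ApoE3 median, at a log2 difference of -0.48 (SE 0.10, edgeR adjusted p = 0.0036).

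Arntl, the activator, was higher by 0.40 on the log2 scale in ApoE4 PBS cortex (SE 0.09, edgeR adjusted p = 0.00127), and 7 of 8 ApoE4 values were above the highest ApoE3 value. In hippocampus its difference was 0.22 (SE 0.08) and did not pass (edgeR adjusted p = 0.139), with 6 of 8 ApoE4 values above all ApoE3 values. Clock, its partner, ran from 112 to 123 CPM (median 117.5) in ApoE4 PBS cortex and from 96.4 to 110.4 CPM (median 106) in ApoE3 PBS cortex. These groups did not overlap, which held in this direction for 1.14% of 15885 genes, although the log2 difference was 0.16 (SE 0.04, edgeR adjusted p = 0.00452). The Rev-erb genes were lower in ApoE4 PBS cortex by edgeR: Nr1d1 at -0.45 (SE 0.09, adjusted p = 0.0007) and Nr1d2 at -0.32 (SE 0.08, adjusted p = 0.00381). All 8 ApoE4 values of each were below the ApoE3 median. Of the Per genes, Per3 was lower at -0.43 (SE 0.11, edgeR adjusted p = 0.00432), running from 50.2 to 63.1 CPM (median 58.5) in ApoE4 PBS cortex and from 61.0 to 96.3 CPM (median 78.4) in ApoE3 PBS cortex. Per1 at -0.31 (SE 0.16) and Per2 at -0.21 (SE 0.13) did not pass, and neither did Tef at -0.06 (SE 0.04). In hippocampus the members other than Ciart and Dbp did not pass, with log2 differences from -0.28 (Per3) to 0.22 (Arntl); 8 of 10 members had an unadjusted p under 0.05, against 16% of tested genes. The difference between regions in the genotype effect was not tested.

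**Figure D2:**
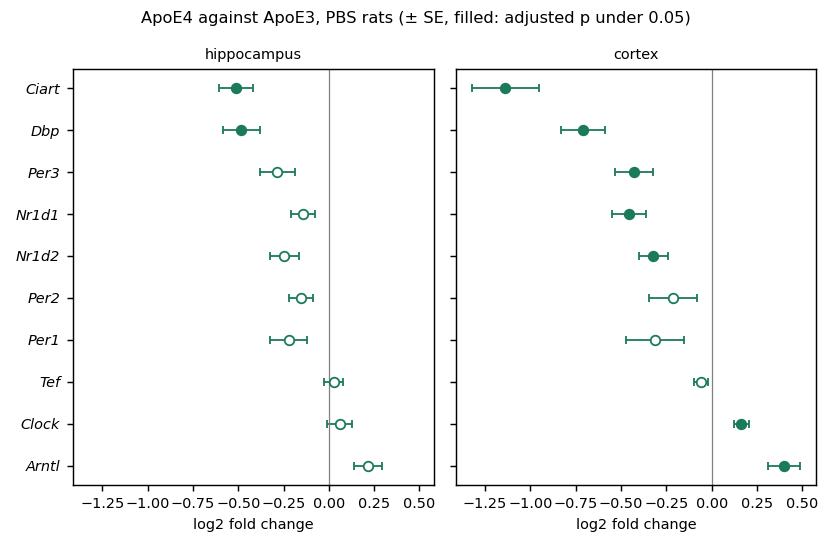
Log2 fold change of ApoE4 over ApoE3 in PBS rats for the 10 members in hippocampus (left) and cortex (right), with SE as bars; filled points passed at an adjusted p of 0.05. In cortex 5 members lie to the left of 0 and 2 to the right with filled points, and in hippocampus the filled points are Ciart and Dbp.

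Within each sex, Ciart was lower in ApoE4 PBS cortex at -0.88 (SE 0.25) in females and -1.35 (SE 0.24) in males, and Dbp at -0.65 (SE 0.16) in females and -0.76 (SE 0.16) in males, each with an adjusted p under the threshold by edgeR, as had 743 of 15315 genes in females and 2196 in males. Arntl was at 0.30 (SE 0.12, edgeR adjusted p = 0.132) in females and 0.50 (SE 0.12, edgeR adjusted p = 0.00318) in males. Per2 was at 0.09 (SE 0.15, edgeR adjusted p = 0.7997) in females and passed as lower in males at -0.47 (SE 0.15, edgeR adjusted p = 0.0282). The differences between sexes in these genotype effects were not tested. These effects within a sex, and those of doxorubicin in ApoE3 cortex, were added after seeing the data. Leaving out each PBS rat in turn left 7 members called in cortex every time, with 2318 to 2843 genes in all, and 2 or 3 in hippocampus, with 441 to 563 genes in all. The third was Nr1d2, which passed without ApoE3 rat 56 (edgeR adjusted p = 0.0491) and without ApoE4 rat 7 (adjusted p = 0.0208).

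Some genes of other lists also differed between the genotypes in the same cortices, where 18.2% of 15315 tested genes passed. Whether any list differed from that share was not tested. Of 5 tested meningeal fibroblast markers (Col1a1, Col3a1, Dcn, Lum, Slc6a20), 5 were higher and 4 passed in ApoE4 PBS cortex, and they summed to 67.3 to 203 CPM (median 165) against 55.5 to 93.7 CPM (median 74.3) in ApoE3 PBS cortex. Astrocyte markers passed as higher for 2 of 3 genes, at summed levels of 1702 to 2110 CPM in ApoE4 and 1393 to 2055 CPM in ApoE3. In the same comparison 1 of 3 microglial markers passed as lower, and 0 of 4 oligodendrocyte and 0 of 5 choroid plexus markers passed. The 4 hippocampal markers were all higher, and 1 passed (Dsp, log2 1.45, SE 0.29), with sums of 184 to 309 CPM in ApoE4 and 155 to 218 CPM in ApoE3; of 4 cortical markers 2 were higher, of which 1 passed, and 2 lower. The endothelial marker Flt1 was higher (log2 0.275, SE 0.097). Of the glucocorticoid-responsive genes, 3 of 10 passed, Sgk1 (-0.59, SE 0.21) and Tsc22d3 (-0.29, SE 0.095) lower and Zbtb16 (0.27, SE 0.08) higher. Of 6 temperature-linked genes, the cold-inducible Rbm3 was lower (-0.39, SE 0.08), and 0 of 10 immediate early genes passed. Mitochondrially encoded transcripts took 7.71% to 10.4% of counts in ApoE4 PBS cortex and 6.38% to 10.1% in ApoE3 PBS cortex. In hippocampus, where 3.81% of 15416 tested genes passed, 5 of 5 meningeal markers were lower with 0 passing. There 4 of 4 oligodendrocyte markers were higher with 2 passing (median log2 0.27). In the same hippocampi the microglial P2ry12 (-0.44), the neuropeptide gene Vip (-0.48) and the glucocorticoid-responsive Fkbp5 (-0.20) passed as lower, and the myelin gene Mbp (0.32) and the granule cell marker Dsp (1.73) as higher, on the log2 scale. All 10 immediate early genes were lower there, with 0 passing. The part of these lists in the clock gene differences was not tested.

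Under doxorubicin 0 of 10 members, and 0 genes in all, passed by edgeR in each of the 4 comparisons with PBS (0% of 14873 tested in ApoE4 hippocampus, 14899 in ApoE3 hippocampus, 14838 in ApoE4 cortex and 14775 in ApoE3 cortex). An unadjusted p under 0.05 was reached by 1098, 1530, 1308 and 1366 genes in that order, and DESeq2 called 1, 162, 40 and 76 genes, with members among them in ApoE4 cortex. For 0 of 10 members were all 8 doxorubicin values above or below all 8 PBS values. Of 15885 genes this held as lower for 0.0063% in ApoE4 hippocampus, 0.0063% in ApoE3 hippocampus, 0.0063% in ApoE4 cortex and 0.0189% in ApoE3 cortex, and as higher for 0.0063%, 0.0126%, 0.0315% and 0.0189% in the same order. Within each genotype and sex the doxorubicin rats bear higher numbers than the PBS rats, so treatment and whatever the number records cannot be told apart. In ApoE4 cortex 8 of 10 members were higher under the drug, with a median log2 change of 0.17 against -0.00036 over all tested genes, and 6 of 10 had an unadjusted p under 0.05, against 8.82% of tested genes.

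In ApoE4 cortex Ciart ran from 8.89 to 16.1 CPM with a median of 12.4 under doxorubicin, against 6.28 to 9.72 CPM with a median of 8.69 under PBS. All 8 doxorubicin values were above the PBS median, and the log2 change was 0.53 (SE 0.11, edgeR adjusted p = 0.273). Dbp ran from 82.5 to 119 CPM (median 101) under doxorubicin and from 68.6 to 102 CPM (median 77.9) under PBS, a log2 change of 0.31 (SE 0.08, edgeR adjusted p = 0.292). Per3 ran from 50.3 to 86.4 CPM (median 73.4) under doxorubicin and from 50.2 to 63.1 CPM (median 58.5) under PBS, with 7 of 8 doxorubicin values above all PBS values. Its log2 change was 0.31 (SE 0.07, edgeR adjusted p = 0.273). Arntl ran the other way, from 39.8 to 55.2 CPM (median 47.3) under doxorubicin against 49.3 to 58.6 CPM (median 55.2) under PBS, at a log2 change of -0.20 (SE 0.06, edgeR adjusted p = 0.367). Nr1d2 was at 0.18 (SE 0.05), Per2 at 0.19 (SE 0.08), Per1 at 0.16 (SE 0.13), Nr1d1 at 0.14 (SE 0.08), Tef at 0.05 (SE 0.03) and Clock at -0.04 (SE 0.04). These comparisons share the ApoE4 PBS rats with the genotype comparison above.

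Calls in ApoE4 cortex depended on the tool. In the authors' deposited table for this comparison, made with DESeq2, Dbp (log2 0.31) and Per3 (log2 0.32) had an adjusted p of 0.0455 each. They were among 28 genes with an adjusted p under 0.05. Ciart (log2 0.54) was given no adjusted p there. Its unadjusted p by DESeq2 was 1.49e-05, against 0.00013 for Dbp and 0.00015 for Per3. DESeq2 with sex as a covariate called 40 genes, with Per3 (adjusted p = 0.0169) and Dbp (adjusted p = 0.0343) among them, and gave Ciart no adjusted p. Without a filter on low counts edgeR called 4 genes, Ciart and Per3 among them (adjusted p = 0.0413 each). Leaving out rat 10 of the doxorubicin group alone brought Per3 past the threshold by edgeR (log2 0.36, adjusted p = 0.0431). Beside these changes, 5 of 5 meningeal, 4 of 4 tested choroid plexus and 3 of 3 astrocyte markers were lower under doxorubicin in ApoE4 cortex, with 0 passing. The meningeal markers summed to 45.0 to 253 CPM (median 99.8) under doxorubicin and 67.3 to 203 CPM (median 165) under PBS, and the choroid plexus markers to 4.45 to 78.9 CPM and 8.50 to 654.5 CPM. Their part in the clock gene values was not tested.

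In ApoE3 cortex 5 members were higher and 5 lower under doxorubicin. Per2 was at 0.31 (SE 0.15, edgeR adjusted p = 0.54) and Per1 at 0.27 (SE 0.16), while Ciart was at -0.17 (SE 0.20) and Dbp at -0.14 (SE 0.14). Per2 alone had an unadjusted p under 0.05, against 9.25% of tested genes. In ApoE3 hippocampus Nr1d1 was the 1 member with an unadjusted p under 0.05 (against 10.3% of genes). It ran from 77.9 to 103 CPM (median 93.3) under doxorubicin and from 91.9 to 116 CPM (median 108) under PBS, at -0.18 (SE 0.06, edgeR adjusted p = 0.248). Ciart there was at -0.21 (SE 0.10) and Dbp at -0.20 (SE 0.12). In ApoE4 hippocampus 0 members had an unadjusted p under 0.05, against 7.38% of genes, and log2 changes ran from -0.10 (Clock) to 0.13 (Ciart).

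**Figure D3:**
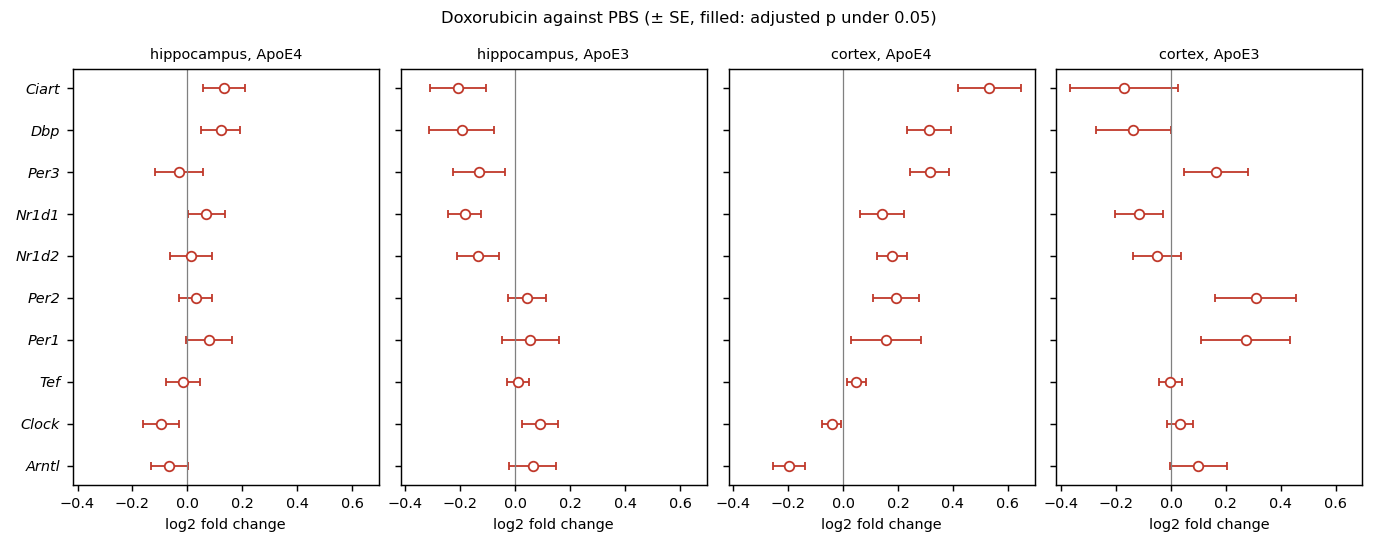
Log2 fold change of doxorubicin over PBS for the 10 members in hippocampus and cortex of ApoE4 and ApoE3 rats, with SE as bars; open points did not pass at an adjusted p of 0.05. No point is filled, and the largest changes include those of Ciart (0.53), Per3 (0.31) and Dbp (0.31) in ApoE4 cortex.

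The drug effects were also compared between genotypes and between regions, and 0 genes passed by edgeR in either kind of comparison. For the ApoE4 effect minus the ApoE3 effect, 0% of 15315 genes passed in cortex and 0% of 15416 in hippocampus, while 834 and 1261 genes had an unadjusted p under 0.05. In cortex 4 members had an unadjusted p under 0.05 (against 5.45% of genes): Ciart at 0.72 (SE 0.26), Dbp at 0.45 (SE 0.17), Nr1d2 at 0.23 (SE 0.11) and Arntl at -0.30 (SE 0.12), each with an adjusted p of 0.879 by edgeR. In hippocampus 3 did (against 8.18% of genes), Ciart at 0.35 (SE 0.13), Dbp at 0.32 (SE 0.14) and Nr1d1 at 0.26 (SE 0.09). For the hippocampal effect minus the cortical effect, 0% of 15432 genes passed in ApoE4 and 0% of 15428 in ApoE3 rats, while 554 and 1235 genes had an unadjusted p under 0.05. In ApoE4 rats Ciart was at -0.39 (SE 0.14) and Per3 at -0.34 (SE 0.12), both with an unadjusted p under 0.05, as had 3.59% of genes; in ApoE3 rats no member had one, against 8% of genes. With the rat as a block, 9 genes and no member passed in ApoE3 rats (0.0583%).

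Between females and males over all groups, 0 of 10 members passed by edgeR in hippocampus (0.11% of genes) and 0 of 10 in cortex (0.705% of genes), where 1463 and 2302 genes had an unadjusted p under 0.05. The members had log2 differences from -0.11 (Per1, cortex) to 0.13 (Per3, cortex). The drug effect differed by sex for Per2 in ApoE3 cortex. Per2, a core repressor that also responds to acute stimuli, was at 76.9, 99.9, 113 and 127 CPM in doxorubicin females and at 49.5, 54.9, 65.5 and 70.8 CPM in PBS females. It was at 60.3, 73.3, 79.3 and 91.4 CPM in doxorubicin males and at 71.0, 76.6, 87.3 and 108 CPM in PBS males. All 4 doxorubicin females were above all 4 PBS females, as held for 4.23% of 15885 genes (4.65% lower), and the male groups overlapped. Among males 3.8% of genes had all doxorubicin values above all PBS values, and 2.23% had them below. The log2 change was 0.80 (SE 0.15, edgeR adjusted p = 0.0139) in females and -0.17 (SE 0.14, edgeR adjusted p = 0.699) in males, where 196 and 118 of 14775 genes passed, and the female effect minus the male effect was 0.97 (SE 0.20, edgeR adjusted p = 0.0158). Per2 was the 1 member of 10 that passed in this comparison, against 2.57% of 14775 tested genes (0.758% higher, 1.81% lower). Of the members, 5 had an unadjusted p under 0.05, against 19.5% of genes: Per2, Per3, Clock, Dbp at 0.55 (SE 0.24) and Arntl at -0.41 (SE 0.18). Per3 at 0.60 (SE 0.19, edgeR adjusted p = 0.0853) and Clock at -0.25 (SE 0.08, edgeR adjusted p = 0.0753) did not pass. Without a filter on low counts Per3 passed as well (edgeR adjusted p = 0.00747), and without doxorubicin rat 52 Clock passed (edgeR adjusted p = 0.0473). Beside it, 9 of 10 immediate early genes and 5 of 10 glucocorticoid-responsive genes had a higher female than male effect, with 0 passing in either list. The meningeal, astrocyte, microglial and endothelial markers did so for 4 of 5, 3 of 3, 3 of 3 and 1 of 1 tested genes, also with 0 passing. Vip (-0.54, edgeR adjusted p = 0.0334) and the heat shock gene Hsph1 (-0.49, edgeR adjusted p = 0.00741) passed as lower. The part of these genes in the Per2 difference was not tested. The female minus male effect called 0 members in the other comparisons (by edgeR 0% of genes in ApoE4 hippocampus and in ApoE3 hippocampus, where 519 and 663 genes had an unadjusted p under 0.05, and 0.00674% in ApoE4 cortex). An unadjusted p under 0.05 was reached by 1 member in ApoE4 hippocampus (3.49% of genes), 2 in ApoE3 hippocampus (4.45%) and 0 in ApoE4 cortex (5.84%). These were Tef, at -0.33 (SE 0.09) in ApoE4 and -0.17 (SE 0.07) in ApoE3 hippocampus, and Per2 at 0.34 (SE 0.12) in ApoE3 hippocampus.

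Several members deviated together in both regions of a rat. To measure this, each log2 CPM was centred on the mean of the 4 rats of the same region, genotype, treatment and sex, and hippocampus was correlated with cortex over the 32 rats, with a two-sided permutation test within those sets. Dbp, Per1, Per3 and Nr1d2 passed after Benjamini-Hochberg adjustment over 15885 genes, 4 of 10 members against 0.22% of genes. The median r of all genes was 0.0798, and r of the members ran from -0.28 (Tef) to 0.89 (Dbp).

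Dbp had r = 0.89 (rho = 0.84, permutation p = 1e-05, adjusted p = 0.0122), where 1e-05 is the smallest p that 100000 draws can give. In the rat with the lowest Dbp of its group in both regions, ApoE3 doxorubicin rat 47, Dbp was at 60.0 CPM in hippocampus and 65.9 CPM in cortex. Arntl in that rat was the highest of its group, at 41.0 CPM in hippocampus and 60.5 CPM in cortex. Per1, the repressor that responds to acute stimuli, had r = 0.81 (rho = 0.77, permutation p = 1e-05, adjusted p = 0.0122). Per3 had r = 0.74 (rho = 0.77, permutation p = 6e-05, adjusted p = 0.0318) and Nr1d2 r = 0.73 (rho = 0.72, permutation p = 4e-05, adjusted p = 0.0265). Nr1d1 at r = 0.77 (rho = 0.74, permutation p = 0.00016, adjusted p = 0.0605) and Arntl at r = 0.69 (rho = 0.61, permutation p = 0.00041, adjusted p = 0.088) lay close to the threshold and did not pass. Ciart at r = 0.59 (rho = 0.46, permutation p = 0.00811, adjusted p = 0.317) and Per2 at r = 0.48 (rho = 0.47, permutation p = 0.0103, adjusted p = 0.349) did not pass. Clock at r = 0.12 (rho = 0.09, permutation p = 0.574, adjusted p = 0.927) and Tef at r = -0.28 (rho = -0.25, permutation p = 0.132, adjusted p = 0.725) showed no detectable agreement. These p-values are those of r. The permutation p of rho was 1e-05 for Dbp, 6e-05 for Per1, 4e-05 for Per3, 6e-05 for Nr1d2, 0.0003 for Nr1d1, 0.00128 for Arntl, 0.0144 for Per2, 0.0225 for Ciart, 0.225 for Tef and 0.659 for Clock. Without the 2 rats farthest from the median of the hippocampal values, r was 0.78 for Dbp, 0.72 for Per1, 0.65 for Per3, 0.55 for Nr1d2, 0.66 for Nr1d1 and 0.57 for Arntl. The smallest of these relations, that of Nr1d2, then had a permutation p of 0.00225. Within ApoE4 rats alone r was 0.68 for Dbp and 0.68 for Per1, and within ApoE3 rats alone it was 0.95 and 0.89. Within females r was 0.83 for Dbp and 0.66 for Per1, and within males 0.92 and 0.88. Per3 was at 0.45 within ApoE4 and 0.91 within ApoE3 rats, and Nr1d2 at 0.59 and 0.86. Within females Per3 was at 0.78 and Nr1d2 at 0.50, and within males at 0.72 and 0.82. The differences in r between genotypes and between sexes were not tested. Whether the hour of tissue collection differed between the rats was not tested.

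**Figure D4:**
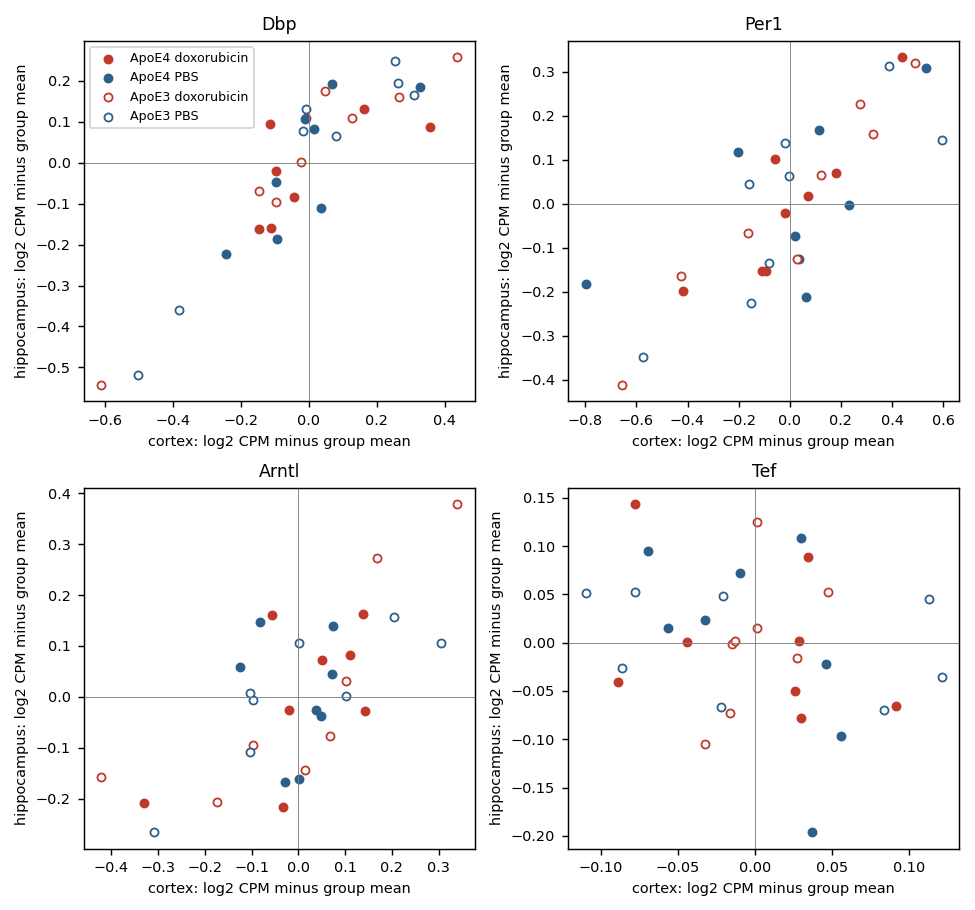
Each point is 1 rat: hippocampal against cortical log2 CPM of Dbp, Per1, Arntl and Tef, each minus the mean of the 4 rats of the same region, genotype, treatment and sex (filled, ApoE4; open, ApoE3; red, doxorubicin; blue, PBS). Dbp (r = 0.89), Per1 (r = 0.81) and Arntl (r = 0.69) lie along a rising line, and Tef (r = -0.28) does not.

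The same centred values were correlated with those of Arntl within each region, where Ciart, Dbp, Nr1d2 and Per3 had the most negative r of all genes in cortex. In cortex r with Arntl was -0.85 for Ciart (rho = -0.77, permutation p = 3e-05), -0.85 for Dbp (rho = -0.77, permutation p = 1e-05), -0.81 for Nr1d2 (rho = -0.69, permutation p = 0.00022) and -0.78 for Per3 (rho = -0.72, permutation p = 0.00013). Among 15884 genes these were the 4 lowest, in the order Ciart, Dbp, Nr1d2 and Per3. Nr1d1 had r = -0.68 (rho = -0.56, permutation p = 0.00104) and Tef r = -0.55 (rho = -0.51, permutation p = 0.00143). Clock, the partner of Arntl, had a positive r of 0.59 (rho = 0.51, permutation p = 0.00373). The repressors Per1 (r = -0.09, rho = -0.05, permutation p = 0.727) and Per2 (r = -0.32, rho = -0.34, permutation p = 0.173) did not follow Arntl detectably. The permutation p of rho was 9e-05 for Ciart, 4e-05 for Dbp, 0.00056 for Nr1d2, 0.00025 for Per3, 0.00309 for Nr1d1, 0.0063 for Tef, 0.0108 for Clock, 0.112 for Per2 and 0.809 for Per1. No gene passed adjustment over all genes (0%; adjusted p = 0.238 for Ciart, 0.159 for Dbp, 0.397 for Nr1d2 and 0.344 for Per3), and with 100000 draws a gene standing alone could not pass. Without the 2 rats farthest from the Arntl median, r was -0.84 for Ciart, -0.80 for Dbp, -0.77 for Nr1d2, -0.76 for Per3, -0.52 for Nr1d1, -0.52 for Tef and 0.40 for Clock. The relation of Clock then had a permutation p of 0.0502.

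In hippocampus r with Arntl was -0.67 for Dbp (rho = -0.65, permutation p = 0.00014, adjusted p = 0.54), -0.55 for Nr1d2 (rho = -0.50, permutation p = 0.00309, adjusted p = 0.846), -0.53 for Per3 (rho = -0.52, permutation p = 0.00754, adjusted p = 0.956) and -0.46 for Nr1d1 (rho = -0.39, permutation p = 0.0206, adjusted p = 0.956). Of all genes, 1 other of 15884 had an r as low as that of Dbp, and no gene passed adjustment (0%). Ciart (r = -0.35, rho = -0.25, permutation p = 0.052), Per1 (-0.03, rho = -0.05, p = 0.909), Per2 (-0.08, rho = -0.05, p = 0.672), Tef (0.08, rho = 0.03, p = 0.673) and Clock (-0.11, rho = -0.04, p = 0.599) had no relation past an unadjusted permutation p of 0.05. The permutation p of rho was 0.00022 for Dbp, 0.00862 for Nr1d2, 0.00952 for Per3 and 0.0428 for Nr1d1, and 0.201 to 0.879 for the others. Without the 2 rats farthest from the Arntl median, r was -0.55 for Dbp, -0.52 for Nr1d2 and -0.47 for Per3, and that of Nr1d1, at -0.35 (permutation p = 0.0995), no longer held. Within ApoE4 rats r with Arntl was -0.69 for Dbp and -0.50 for Ciart in cortex, and within ApoE3 rats -0.89 and -0.95. In hippocampus Dbp was at -0.53 within ApoE4 and -0.73 within ApoE3 rats, and Ciart at -0.07 and -0.49.

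**Figure D5:**
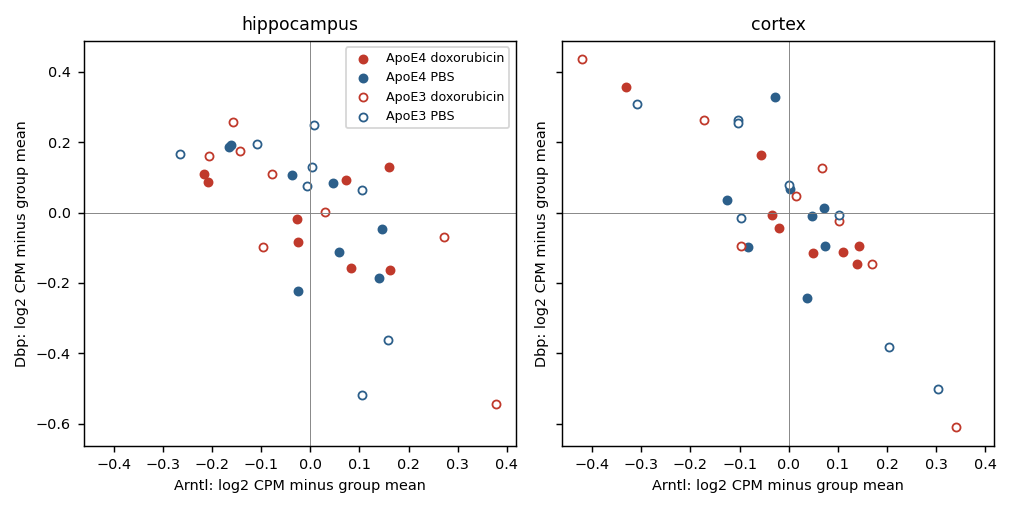
Each point is 1 rat: log2 CPM of Dbp against that of Arntl in hippocampus (left) and cortex (right), each minus the mean of the 4 rats of the same region, genotype, treatment and sex (filled, ApoE4; open, ApoE3; red, doxorubicin; blue, PBS). The points fall from upper left to lower right in both regions (r = -0.67 and -0.85).

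Several members also varied together. In hippocampus and cortex r with Dbp was 0.83 and 0.89 for Nr1d2, 0.74 and 0.81 for Nr1d1, 0.69 and 0.86 for Per3, and 0.49 and 0.83 for Ciart. Per1, whose regions were correlated within a rat, had r with Dbp of 0.02 and -0.01, and Tef had -0.26 and 0.67. Outside the members, the 5 genes most like Dbp by the lower r of both regions over 32 rats were Khk (0.58), Jade1 (0.55), Sim2 (0.44), Mapk6 (0.44) and Fuz (0.43). Those most like Arntl were Nfil3 (0.60), Bcr (0.50), Rprml (0.49), Adcy5 (0.48) and Pcbp2 (0.47). Nfil3, a bZIP repressor of D-box elements, also had r = 0.86 between the regions of a rat.

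Of 18 other clock genes, 17 were tested in cortex and 16 in hippocampus, and in ApoE4 PBS against ApoE3 PBS rats 1 passed in cortex, against 18.2% of all tested genes, and 0 in hippocampus, against 3.81%, where 3 had an unadjusted p under 0.05. The one was Usp2, a deubiquitinase with rhythmic transcripts, lower in ApoE4 cortex (log2 -0.28, SE 0.08, edgeR adjusted p = 0.00953) and at 0.19 (SE 0.08, edgeR adjusted p = 0.248) in hippocampus. Their median log2 difference was 0.02 in cortex and -0.07 in hippocampus. Under doxorubicin 0 of these genes passed in any comparison, and among those of smallest p were Bhlhe40 (0.13) in ApoE4 hippocampus, Npas2 (-0.24) and Timeless (-0.34) in ApoE3 hippocampus, Cry2 (0.08) and Usp2 (0.14) in ApoE4 cortex, and Cry2 (0.10) and Rorb (0.22) in ApoE3 cortex. Between regions in PBS rats, 13 of 17 passed in ApoE4 (3 higher, 10 lower in hippocampus) and 11 of 17 in ApoE3 rats (2 higher, 9 lower), against 50.4% and 51% of all tested genes. Npas2, which can replace Clock as partner of Arntl, was lower in hippocampus at -1.18 (SE 0.06) in ApoE4 and -0.88 (SE 0.07) in ApoE3 rats on the log2 scale. Hlf, the third PAR bZIP factor, was at -1.11 (SE 0.08) and -1.01 (SE 0.10), opposite in sign to its relative Tef. Among the genes that passed in both genotypes were Rorb, Arntl2, Bhlhe40, Csnk1e, Rora, Npas2 and Hlf, lower, and Bhlhe41 and Csnk1d, higher; in 1 genotype, Usp2 was among those that passed as lower in ApoE3 rats, and Wee1, Timeless and Nfil3 as lower and Fbxl21 as higher in ApoE4 rats.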

How the data were processed

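RNA was extracted with the RNeasy Plus Universal kit and libraries were made with NEBNext Ultra II, per the labels' protocols. STAR 2.5.2b aligned the reads and DESeq2 compared groups, per the submitters' processing notes. The counter, its strand setting, the annotation and the genome build are not given in the sources used here. Raw counts per gene were taken as deposited, in 4 tables of 16 libraries each. The authors' deposited signal columns are these counts divided by 1 size factor per library (largest relative spread 1e-14). The authors' deposited log2 fold changes, p-values and adjusted p-values were copied for comparison only. Of 32644 table rows, 92 spike-in rows, which took 0.932% to 2.44% of counts, were kept out of library sizes and tests. A row named as an ApoE3 donor was not removed and is 1 of the 32552 gene rows.

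Each region and genotype was fitted with edgeR 4.0.16 (R 4.3.3): filterByExpr, TMM scaling, a quasi-likelihood F-test with treatment and sex, and Benjamini-Hochberg adjustment over all tested genes at 0.05. Genotype and sex comparisons used 1 fit per region, and region comparisons 1 fit per genotype. Each SE equals the absolute log2 change over the root of its F statistic. Correlations used log2 CPM with a prior count of 1, centred per region, genotype, treatment and sex, with 100000 permutations within those sets. Library titles give the same 32 rat numbers in both regions, each with 1 genotype, sex and treatment, and a shared number was taken to name 1 animal, so the rat as a block is the paired fit. The edgeR and correlation steps were tested on simulated data.

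The members and gene lists were chosen with earlier results of these data known. The 10 members are always named, other clock genes, with exceptions, where they passed or were among the 2 of smallest p in a doxorubicin comparison, and, for Dbp and Arntl, the 5 most similar non-members of 12980 candidates whose mean log2 CPM was 0 or more. Alternatives were RLE scaling, no filter, no sex covariate, DESeq2 1.42.0, 1 fit per region, the rat block, left-out rats, other centring and a prior count of 5. A few results on genes outside the members are not reported here.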

Additional observations from a re-analysis of the deposited data

Results flagged for a closer look

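In groups of 8 rats, 80 sets of member values were tested for a rat far from the others, by its gap to the nearest value over the range of the group, both in log2 CPM (critical value 0.526). Chance alone gives about 1 in 20 for a single set, and 7 were found. The sets share rats, and several members vary together, so they are not separate trials. In cortex of ApoE4 PBS rats, rat 1 was lowest in Per1 (53.4 CPM, nearest 87.3 CPM, log2 gap over log2 range 0.533) and Per2 (50.6 CPM, nearest 59.8 CPM, ratio 0.542), and rat 7 was highest in Dbp (102 CPM, nearest 82.0 CPM, ratio 0.549). ApoE3 doxorubicin rat 47 was lowest in 4 sets. These were Dbp in hippocampus (60.0 CPM, nearest 92.8 CPM, ratio 0.709), Nr1d1 in cortex (96.3 CPM, nearest 133 CPM, ratio 0.573), and Nr1d2 in hippocampus (66.1 CPM, nearest 80.6 CPM, ratio 0.545) and in cortex (87.1 CPM, nearest 121 CPM, ratio 0.679). The doxorubicin effect on Per2 differed between the sexes in ApoE3 cortex, the female effect minus the male effect being 0.97 on the log2 scale (edgeR adjusted p = 0.0158).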

How the results depend on the processing

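Under the alternatives, 1794 values of named genes kept their direction and side of the threshold, 30 passed it, 18 no longer did and 42 changed sign; of the counts of calls, 317 stayed within 1.5 times and 36 did not. The cause of a change was not tested. Under doxorubicin edgeR called 0 genes. DESeq2 called 162 in ApoE3 hippocampus, 1 in ApoE4 hippocampus, 76 in ApoE3 cortex and 40 in ApoE4 cortex, with 2 members in the last. Without a filter on low counts edgeR called 7 genes in ApoE3 cortex and 4 with 2 members in ApoE4 cortex. That setting gave 631 genes with 2 members for the female minus male effect in ApoE3 cortex, 16 genes for that effect in ApoE4 cortex and 40 for the hippocampal minus cortical effect in ApoE3 rats, which had 9 with the rat as replicate block. In 1 fit of the region, 10 genes passed in ApoE3 cortex. Leaving out each rat gave 0 to 2 genes in ApoE3 cortex (2 without rat 45, 1 without rat 59 or 72), and 0 to 1 genes and 0 to 1 members in ApoE4 cortex (1 gene without rat 10 or 31). Chosen after seeing the data, leaving out each rat was also run on the ApoE3 cortical sex difference, with 125 to 699 genes and 1 to 2 members (125 without rat 65, 699 without rat 56, 136 to 234 without rats 37, 47, 49, 58, 61 or 72), and on the genotype comparison, with 7 members and 2318 to 2843 genes in cortex and 2 to 3 members and 441 to 563 genes in hippocampus. Agreement of the regions called 8 members and 823 genes without centring, and 0 members and 0 genes within males, females, ApoE3 or ApoE4 alone; the cortical relation with Arntl called 7 members and 779 genes without centring, and 4 members and 4 genes with centring on genotype and treatment. Small values changed sign as single rats were left out: in hippocampus Arntl in ApoE3 (-0.0032 to 0.096), Tef in ApoE3 (-0.0084 to 0.032), Per3 in ApoE4 (-0.081 to 0.021), Tef in ApoE4 (-0.053 to 0.014, and 0.0096 without rats 10 and 31) and Nr1d2 in ApoE4 (-0.017 to 0.079); in ApoE3 cortex Tef (-0.019 to 0.017) and Nr1d2 (-0.089 to 0.016), and in the sex difference there Nr1d1 (-0.25 to 0.0057) and Nr1d2 (-0.00079 to 0.24). Nr1d1 between females and males in cortex was at 0.0010 with RLE scaling and 0.0016 with no filter. The agreement of Clock was -0.13 without centring, -0.17 with centring on genotype and treatment, -0.19 in ApoE4 rats and -0.025 without the 2 rats farthest from the median. With Arntl in hippocampus, Per1 was at 0.022 in males and 0.034 in ApoE3 rats, Per2 at 0.25 in females, Tef at -0.041 in females and -0.11 in ApoE3 rats, and Clock at 0.061 in females and 0.010 in ApoE3 rats; in cortex Per1 was at 0.0016 in females and 0.067 in ApoE3 rats. Ciart, at 78 to 430 counts per library, is the member whose values counting limits most.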

Other observations

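The number that names each rat went with several members, a relation noticed after the values had been seen. What the numbers record is not given in the labels used here. Over the 32 rats, with centring on region, genotype, treatment and sex, the cortical r with the rat number was 0.81 for Dbp (rho = 0.84), 0.74 for Per3, 0.73 for Nr1d2, 0.68 for Tef, 0.67 for Ciart and 0.66 for Nr1d1, and -0.72 for Arntl (rho = -0.72). Among 15885 genes Dbp had the highest cortical r and Arntl the lowest. In hippocampus r was 0.77 for Dbp (rho = 0.79), again the highest of all genes, 0.73 for Nr1d2, 0.65 for Per3, 0.57 for Nr1d1, 0.44 for Ciart, -0.24 for Tef and -0.70 for Arntl. Per2 had rho of 0.47 in cortex and 0.45 in hippocampus (permutation p of rho = 0.0198 and 0.0296). Per1 had rho of 0.12 and 0.32 (permutation p of rho = 0.551 and 0.126), and Clock -0.32 and -0.02 (permutation p of rho = 0.129 and 0.919). By the permutation test no gene passed adjustment over all genes in either region (permutation p = 1e-05 for Dbp in both regions, the smallest 100000 draws can give). The adjusted permutation p was 0.106 for Dbp and Arntl in cortex, and 0.159 for Dbp and 0.265 for Arntl in hippocampus. With that number of draws a gene standing alone could not pass. Within ApoE4 rats r for Dbp was 0.80 in cortex and 0.73 in hippocampus, and within ApoE3 rats 0.87 and 0.84. Without the 2 rats farthest from the median number, r for Dbp was 0.78 in cortex and 0.82 in hippocampus (permutation p = 3e-05 and 1e-05), and for Arntl -0.63 and -0.62 (permutation p = 0.00051 and 0.00036).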
